A study of Mus musculus with 15 samples.

Results

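Pglyrp1, Far2, Islr2 and Pllp are 4 genes that carry nothing across the membrane, whose transcripts were abundant in wild-type retinal endothelial cells and far lower in mice lacking Norrin, its receptor Frizzled4 or its co-receptor Lrp5. They were taken by symbol, with every probe set of each, from 18194 measured genes and 45101 probe sets; the 4 genes have 5 probe sets, since Far2 has 2. They were chosen for this fall, so their values in mutants against wild type are given as a description with no test, and tests were kept for differences between the mutants and for other genes. The series compares Fz4 KO (Fz4-/-), Lrp5 KO (Lrp5-/-) and Norrin KO mice with wild-type mice, with 3 arrays for each mutant and 6 for wild type. All mice were adult, of a C57Bl6/129 mixed background and of mixed gender, and each array held RNA from a pool of 5 to 10 animals. Retinal endothelial cells were taken directly from the tissue on beads carrying an antibody to PECAM, a surface protein of endothelium, and were not cultured.

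Norrin is a ligand secreted by Müller glia that binds the receptor Frizzled4 and its co-receptor Lrp5 on endothelial cells, stabilises beta-catenin and so switches on transcription through TCF/LEF factors. In retina and brain this signal is needed for capillary growth and for the blood-retina and blood-brain barriers, whose endothelial cells have tight junctions, little vesicle traffic and a set of proteins that other endothelia lack. Most of the better known proteins of that set are carriers; the 4 genes here encode an antimicrobial protein, a lipid enzyme, an adhesion-type membrane protein and a membrane-organising protein.

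The targeted genes were read first. At the brighter Fzd4 probe set the Fz4 KO arrays lay at 3.98 to 4.56 (log2 signal throughout, so that a difference of 1 is a doubling), against 11.80 to 12.27 in wild type, and the Lrp5 probe set lay at 4.40 to 5.25 in Lrp5 KO arrays, against 7.22 to 7.95 in wild type. Ndp, which encodes Norrin, lay at 3.88 to 4.35 in Norrin KO arrays and at 4.28 to 4.81 in wild type, all near the arrays' lower quartiles, so this probe set does not check the Norrin KO label. Array lower quartiles were 3.897 to 4.294 and medians 5.885 to 6.038, so values near 4 are at or below the lower quartile of an array. Pecam1, the antigen of the purification, had means of 11.77 in Fz4 KO, 11.76 in Lrp5 KO, 11.46 in Norrin KO and 11.59 in wild type. The mutants as a whole differed from wild type in Pecam1 by 0.07 (limma, adjusted p = 0.743). Of 16 pan-endothelial genes 5 were called lower and 4 higher in the mutants, against 9.91% and 14.0% of all genes (adjusted p under 0.05). Lrp5 KO 1, wild type 4 and Norrin KO 1 stood apart. The first of these lay at 77.4 on the second principal component (17.8% of the variance), where wild type 4 lay at 34.0. Norrin KO 1 had a gap of 2.92 between 3′ and 5′ actin probe sets, against 0.558 to 1.455 on the other 14 arrays. Values of the 4 members below that move without these 3 arrays are given with and without them. For other genes, a call lost without them is counted among the alternative settings that lost it.

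**Figure D1:**
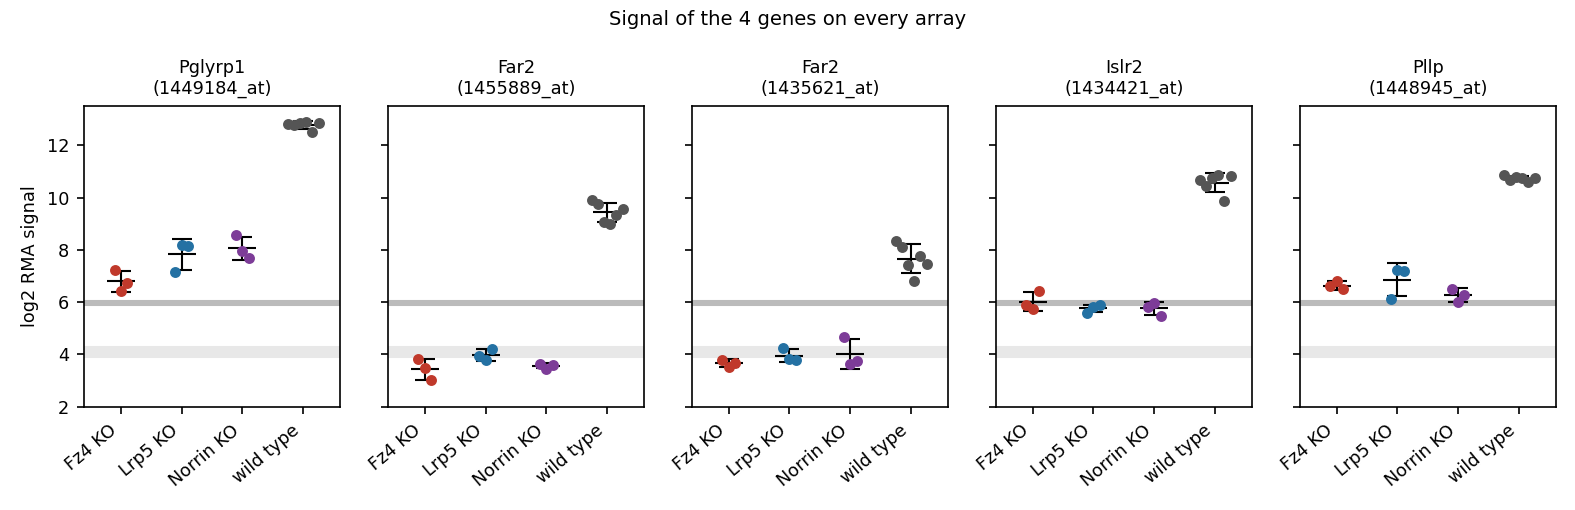
Log2 signal of each member on every array, by group, with group means and SDs as bars; the light and dark bands span the arrays' lower quartiles (3.897 to 4.294) and medians (5.885 to 6.038). For each of the 4 genes all 9 mutant arrays lay below all 6 wild-type arrays, and Far2 in the mutants lay within or near the light band.

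Pglyrp1 encodes a secreted peptidoglycan recognition protein that binds bacterial cell walls and is best known from neutrophil granules. The signal of Pglyrp1 was 7.23, 6.44 and 6.73 on the Fz4 KO arrays, 7.15, 8.20 and 8.16 on the Lrp5 KO arrays and 8.56, 7.95 and 7.69 on the Norrin KO arrays. The 6 wild-type arrays lay at 12.51 at the lowest, 12.83 at the median and 12.90 at the highest. The lowest wild-type array thus exceeded the highest mutant array by 3.96. Group means were 6.80 ± 0.40 in Fz4 KO, 7.84 ± 0.60 in Lrp5 KO and 8.07 ± 0.45 in Norrin KO (SD, n = 3 each), against 12.79 ± 0.14 in wild type (SD, n = 6). These are differences of -5.99, -4.95 and -4.72 from wild type; their mean, -5.22, is a signal 37.3-fold lower in the mutants. Without the 3 arrays that stood apart the Lrp5 KO difference was -4.58.

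Far2 encodes a peroxisomal fatty acyl-CoA reductase, which makes the fatty alcohols used for wax esters and ether lipids. At its brighter probe set the signal was 3.81, 3.48 and 3.02 on the Fz4 KO arrays, 3.93, 3.80 and 4.22 on the Lrp5 KO arrays and 3.65, 3.46 and 3.59 on the Norrin KO arrays. Wild type lay at 9.0 at the lowest, 9.45 at the median and 9.91 at the highest. Of the 9 mutant arrays only Lrp5 KO 3, at 4.22, lay above its own array's lower quartile, so the fold change, 54.9-fold lower for the mean difference of -5.78, may understate the fall. Differences from wild type were -6.00 in Fz4 KO, -5.46 in Lrp5 KO and -5.87 in Norrin KO. The second Far2 probe set lay at 3.52 to 4.68 in the mutants and 6.81 to 8.36 in wild type, a mean difference of -3.78 (13.7-fold lower). At both probe sets every mutant array lay below every wild-type array.

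Islr2, also called Linx, encodes a membrane protein with leucine-rich repeats and an immunoglobulin domain, known from growing axons where it interacts with the receptor tyrosine kinase Ret. Its signal was 5.88, 5.76 and 6.43 on the Fz4 KO arrays, 5.60, 5.80 and 5.89 on the Lrp5 KO arrays and 5.83, 5.97 and 5.49 on the Norrin KO arrays. Wild type lay at 9.88 at the lowest, 10.72 at the median and 10.86 at the highest. The 3 mutants overlapped each other between 5.49 and 6.43, and the highest mutant array lay 3.45 below the lowest wild-type array. Differences from wild type were -4.55 in Fz4 KO, -4.81 in Lrp5 KO and -4.81 in Norrin KO; the mean of -4.72 is a signal 26.4-fold lower.

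Pllp encodes plasmolipin, a tetraspan protein of the MARVEL family found in myelin and at the apical membrane of epithelia, where it organises lipid-rich membrane and endosomes. Its signal was 6.61, 6.81 and 6.49 on the Fz4 KO arrays, 6.13, 7.23 and 7.21 on the Lrp5 KO arrays and 6.52, 6.00 and 6.29 on the Norrin KO arrays. Wild type lay between 10.59 and 10.85, with a median of 10.76. Wild-type arrays varied little (SD 0.09), and the lowest of them exceeded the highest mutant array, Lrp5 KO 2, by 3.35. Differences from wild type were -4.10 in Fz4 KO, -3.88 in Lrp5 KO and -4.46 in Norrin KO, a mean of -4.14 and a signal 17.7-fold lower. Without Lrp5 KO 1, the lowest of its group, the Lrp5 KO difference was -3.51, and without the 3 arrays that stood apart it was -3.50.

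Ranked by the mean difference over the mutants among 18194 genes, Far2 had the 4th, Pglyrp1 the 7th, Islr2 the 8th and Pllp the 13th largest fall. As background, all 9 mutant arrays lay below all 6 wild-type arrays for 3.53% of genes, and 9.91% of genes were called lower and 14.0% higher in the mutants (limma, Benjamini-Hochberg adjusted p under 0.05 over all genes). Since the members were chosen on this contrast, nothing is read from their place in it. In RNA from pooled cells, fewer cells of a type and less RNA per cell cannot be told apart. All comparisons with wild type share the same 6 arrays.

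The common fall of the members was set by how they were chosen. Their promoters are shown because the pathway ends in TCF/LEF factors. Each is 250 bases before to 50 after the annotated start, read in the direction of transcription, from RefSeq (mouse build GRCm38.p6). Capitals mark matches, on either strand, to letters searched after the values were seen: CTTTGAA or CTTTGAT for TCF/LEF, ACAAT for SOX, CCGGAA for ETS, TGTTTAC for FOX, GGGCGG for SP/KLF and TATAAA for a TATA box. In order the windows are chr7:18884440-18884739 (plus strand), chr6:148047166-148047465 (plus), chr9:58204270-58204569 (minus) and chr8:94696193-94696492 (minus).
Pglyrp1: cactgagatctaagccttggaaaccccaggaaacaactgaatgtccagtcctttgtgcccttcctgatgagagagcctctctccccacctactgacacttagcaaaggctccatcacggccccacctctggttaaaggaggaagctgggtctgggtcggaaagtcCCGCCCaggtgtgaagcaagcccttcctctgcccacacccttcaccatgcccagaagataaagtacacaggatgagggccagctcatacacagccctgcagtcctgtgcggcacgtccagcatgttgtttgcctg
Far2: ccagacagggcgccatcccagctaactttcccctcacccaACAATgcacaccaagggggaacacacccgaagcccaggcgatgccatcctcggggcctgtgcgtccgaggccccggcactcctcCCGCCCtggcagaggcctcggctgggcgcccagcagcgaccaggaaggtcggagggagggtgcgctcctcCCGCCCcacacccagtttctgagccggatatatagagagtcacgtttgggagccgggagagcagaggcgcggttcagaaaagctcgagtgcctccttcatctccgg
Islr2: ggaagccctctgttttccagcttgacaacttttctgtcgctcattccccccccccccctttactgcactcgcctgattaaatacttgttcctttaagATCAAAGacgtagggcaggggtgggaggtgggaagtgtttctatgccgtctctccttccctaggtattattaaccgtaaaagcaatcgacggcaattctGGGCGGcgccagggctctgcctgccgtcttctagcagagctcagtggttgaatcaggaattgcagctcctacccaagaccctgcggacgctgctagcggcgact
Pllp: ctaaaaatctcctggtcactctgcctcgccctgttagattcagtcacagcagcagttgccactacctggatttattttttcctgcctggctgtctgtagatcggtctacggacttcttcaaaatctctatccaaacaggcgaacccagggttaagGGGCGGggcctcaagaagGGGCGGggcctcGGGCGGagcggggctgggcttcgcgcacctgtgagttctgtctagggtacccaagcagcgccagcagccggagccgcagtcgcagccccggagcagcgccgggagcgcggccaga
The TCF/LEF letters occurred in the Islr2 window only, at position -153 relative to the gene start and on the opposite strand, as ATCAAAG. Of 32544 mouse promoter windows 8.67% held them. The SP/KLF letters occurred in all 4 windows (once each in Pglyrp1 and Islr2, more often in Far2 and Pllp), against 35.9% of all windows. The SOX letters occurred in Far2, against 30.8% of windows; ETS (15%), FOX (3.66%) and TATA (13.6%) letters occurred in none. GC content was 56.0% in Pglyrp1, 66.0% in Far2, 54.0% in Islr2 and 61.0% in Pllp, with a median of 53.0% over all windows; the numbers of CG pairs were 5, 21, 14 and 20, against a median of 7. Islr2 has 2 further annotated starts, which overlap each other and held none of the letters. A match describes these letters and no more, and no match says only that they were not in this window.

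The 12 differences between mutants were not used to choose the genes. Of them 1 was called: Pglyrp1 was lower in Fz4 KO than in Norrin KO by 1.26 ± 0.29 (SE; 95% interval -1.88 to -0.65; limma, adjusted p = 0.0375). The 3 Fz4 KO arrays lay between 6.44 and 7.23, all below the Norrin KO arrays at 7.69 to 8.56; 24.6% of genes had no overlap between these groups. The background is 2.32% of genes called in this pair, 0.225% between Fz4 KO and Lrp5 KO and 11.9% between Norrin KO and Lrp5 KO. The call was lost with the actin gap as a covariate (adjusted p = 0.382, difference -1.01), with the 2 groups fitted alone (0.129), and when Fz4 KO 1, 2 or 3, Norrin KO 1 or wild type 1, 2 or 6 was left out (0.0523 to 0.139); without the 3 arrays that stood apart it held (-1.02, adjusted p = 0.0369).

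**Figure D2:**
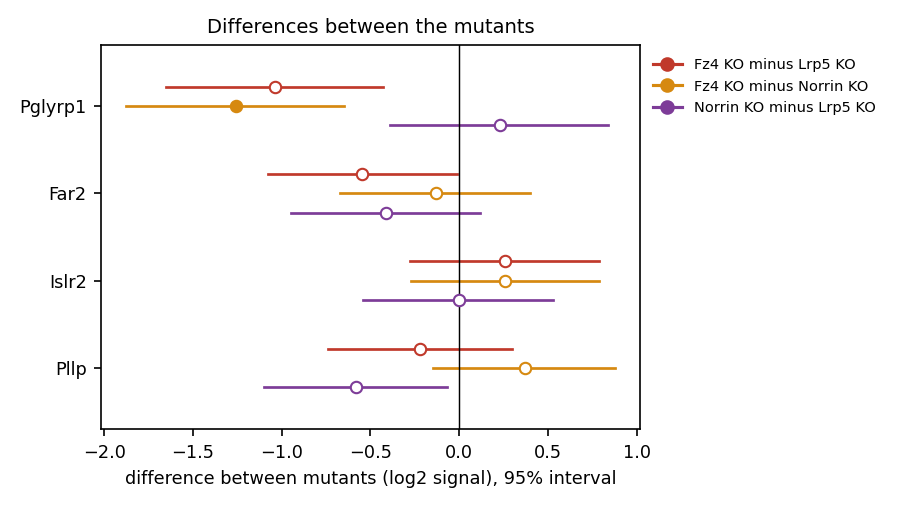
Differences in log2 signal between pairs of mutants for each member, with 95% intervals from the limma fit; a filled point has an adjusted p under 0.05 over all genes. The only filled point is Pglyrp1 in Fz4 KO against Norrin KO, at -1.26.

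Pglyrp1 in Fz4 KO against Lrp5 KO differed by -1.04 (-1.65 to -0.43, adjusted p = 0.275), and by -1.38 (adjusted p = 0.0268) without the 3 arrays. Norrin KO and Lrp5 KO differed in Pglyrp1 by 0.23 (-0.39 to 0.84), and by -0.36 without those arrays. Far2 differences were -0.55 (-1.08 to -0.01) for Fz4 KO against Lrp5 KO, -0.13 (-0.67 to 0.40) for Fz4 KO against Norrin KO and -0.41 (-0.95 to 0.12) for Norrin KO against Lrp5 KO, with adjusted p of 0.285 to 0.844, at a level where the probe set is near background. Islr2 differed by 0.26 (-0.28 to 0.79), 0.26 (-0.27 to 0.79) and -0.00 (-0.54 to 0.53) in the same order of pairs (adjusted p of 0.647 to 0.995). Pllp differed by -0.22 (-0.74 to 0.30) in Fz4 KO against Lrp5 KO and by 0.37 (-0.15 to 0.88) in Fz4 KO against Norrin KO. Pllp in Norrin KO against Lrp5 KO differed by -0.58 (-1.10 to -0.07, adjusted p = 0.125). Without Lrp5 KO 1, the array at 6.13, that difference was -0.95 (adjusted p = 0.0124), and without the 3 arrays -1.07 (adjusted p = 0.00841). With 3 arrays a mutant, differences under about 1 log2 unit were often not resolved, and a p that missed the threshold does not show that the mutants were alike.

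Genes known from barrier endothelium that likewise carry nothing were mostly lower in the mutants. Of 29 written down, 24 were measured; 23 were called lower and 1 higher in the mutants, against 9.91% and 14.0% of all genes, and the median difference was -2.20, against -0.01 over all genes. In 22 of the 24 all mutant arrays lay below all wild-type arrays, against 3.53% of all genes. Fz4 KO had 23 lower and 1 higher (background 6.08% and 10.7%; median -2.24), Lrp5 KO 23 lower, 1 higher (7.27% and 5.63%; median -1.94) and Norrin KO 22 lower, none higher (9.13% and 16.7%; median -2.45). The list was written with earlier results of these data known, so its direction is not independent evidence.

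**Figure D3:**
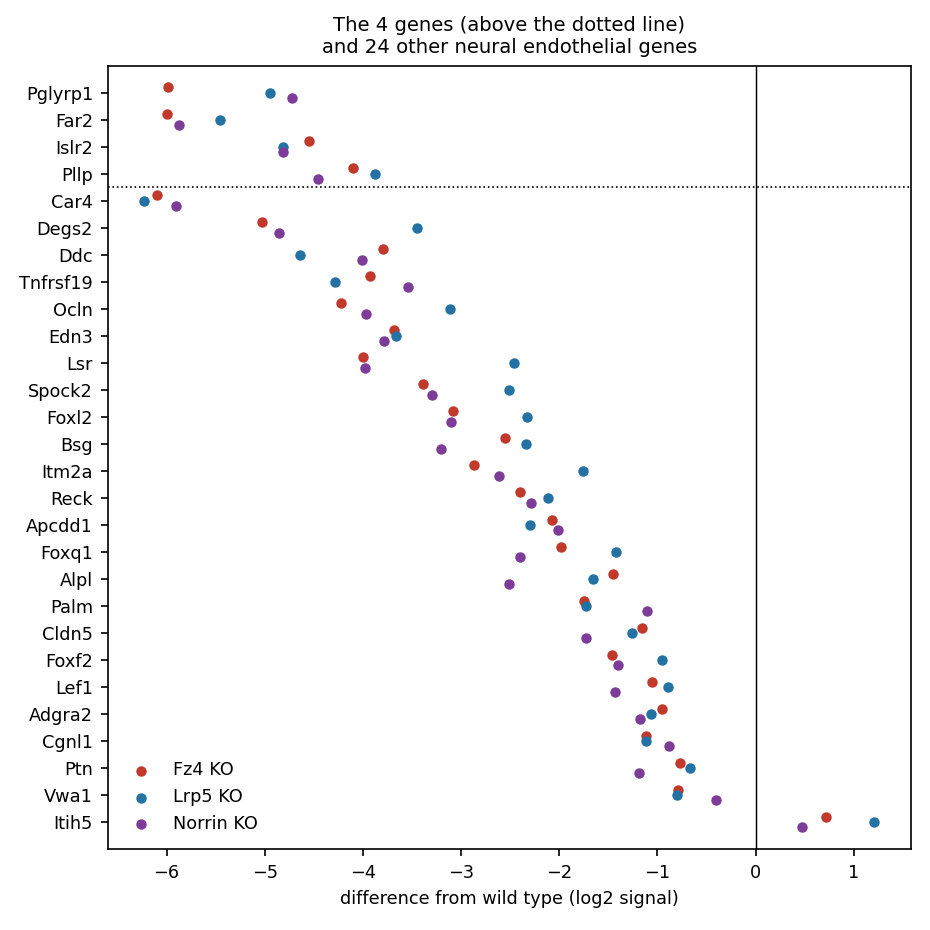
Difference from wild type in log2 signal of the 4 members (above the dotted line) and of the 24 measured barrier endothelial genes that carry nothing, in each mutant. Among the 24, Car4 lay lowest at -6.07 on average over the mutants, and Itih5 was the one gene with a mean above 0, at 0.80.

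Among the enzymes in the list, Car4, a membrane-bound carbonic anhydrase, lay at 3.88 to 5.34 in the mutants and 10.31 to 11.05 in wild type, a difference of -6.07 ± 0.25 (SE; adjusted p = 2.94e-10). Degs2, which hydroxylates sphingolipid precursors, fell by 4.45 (adjusted p = 5.67e-09), and Ddc, the aromatic amino acid decarboxylase, fell by 4.15 (2.12e-09), while a second Ddc probe set lay below the arrays' lower quartiles in mutants (3.24) and wild type (3.45). Alpl, tissue-nonspecific alkaline phosphatase, fell by 1.87, less than the list's median.

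Of the junction proteins in the list, Ocln, the tight junction protein occludin, fell by 3.77 and Lsr, a protein of tricellular junctions, fell by 3.48; a second Lsr probe set lay below the lower quartiles in mutants (2.69) and wild type (2.76). Cldn5, the main claudin of endothelium, fell by 1.38 and Cgnl1, the junction protein paracingulin, by 1.04. Other Cgnl1 probe sets gave -1.32 and -1.23, and the dimmest gave -0.26 and -0.32. Tnfrsf19 (Troy), a tumour necrosis factor receptor family member, fell by 3.92 (-1.61 and -2.20 at its 2 dimmer probe sets). Edn3, the peptide endothelin 3, fell by 3.71 (-2.95, -2.13 and -2.11 at its dimmer probe sets). Apcdd1, an inhibitor of Wnt signalling, fell by 2.12, and Lef1, which binds DNA together with beta-catenin, fell by 1.13 at its brighter probe set and differed by -2.16 at the other. Reck and Adgra2, which act together in Wnt7 signalling, had differences of -2.27 and -1.07. The forkhead transcription factors differed by -2.84 (Foxl2), -1.93 (Foxq1) and -1.27 (Foxf2), all called lower. The dimmer Foxq1 probe set differed by -2.45. Dimmer probe sets of Foxl2 (3.23 in mutants, 3.52 in wild type) and Foxf2 (3.79, 3.73) lay below the arrays' lower quartiles. The remaining genes called lower were Spock2, a matrix proteoglycan, at -3.06, Bsg, the membrane glycoprotein basigin, at -2.70, Itm2a, an integral membrane protein, at -2.41, Palm, the membrane-anchored protein paralemmin, at -1.53, Ptn, the secreted growth factor pleiotrophin, at -0.88 and Vwa1, an extracellular matrix protein, at -0.67.

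Itih5, which links proteins to hyaluronan, rose by 0.80 (adjusted p = 4.31e-04) at 3 probe sets that gave 0.79 to 0.89. It lay at 10.03 to 11.27 in the mutants and 9.73 to 10.26 in wild type, which overlap. Its difference in Norrin KO alone was 0.47 (adjusted p = 0.066), and that of Vwa1 was -0.40 (adjusted p = 0.0788).

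Relatives of the members were counted against the same shares of all genes, 9.91% called lower and 14.0% called higher. Pglyrp2, the only other peptidoglycan recognition gene measured, lay near background in mutants (3.50) and wild type (3.54), with a difference of -0.04 (adjusted p = 0.847). Of 11 genes of fatty alcohol, ether lipid and very long chain fatty acid synthesis measured, 2 were lower and 2 higher, with a median of 0.02. Far1, the other fatty acyl-CoA reductase, lay at 11.11 to 11.63 in the mutants and 11.13 to 11.40 in wild type, and differed by 0.16 ± 0.09 (SE; adjusted p = 0.215); its 5 probe sets ranged between -0.69 and 0.59. Elovl7, a fatty acid elongase, lay at 7.48 to 8.44 in the mutants and 10.30 to 10.63 in wild type. It fell by 2.61 ± 0.14 (SE; adjusted p = 4.14e-09), and its 6 probe sets gave -2.42 to -2.75. Elovl4, which makes very long chain fatty acids, fell by 1.38 (adjusted p = 1.12e-04), but was not called in Lrp5 KO alone (-0.77, limma, adjusted p = 0.0715). Elovl6, which extends palmitate, rose by 1.72 (3.71e-04), with its other probe sets at 0.63 and 0.30. Elovl1 was called higher at 0.31 (adjusted p = 0.0213), but lay at -0.14 when probe sets that may match several transcripts were left out. Taken singly, the mutants gave a call for Elovl1 in Norrin KO only (0.72), with 0.21 in Fz4 KO and 0.01 in Lrp5 KO.

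**Figure D4:**
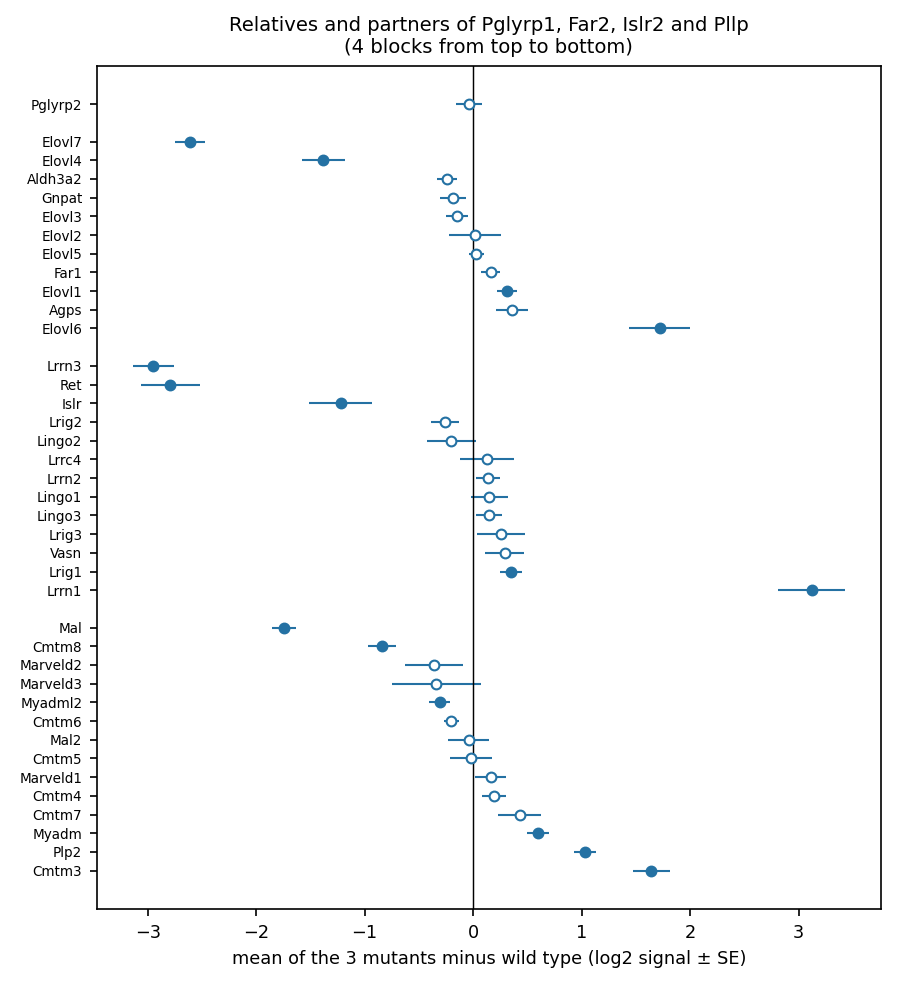
Difference from wild type in log2 signal of the measured relatives and partners of each member, as the mean over the mutants with its SE; filled points have an adjusted p under 0.05. Called genes lie on both sides of 0 among the relatives of Far2, Islr2 and Pllp, between -2.95 (Lrrn3) and 3.12 (Lrrn1).

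Of 13 leucine-rich repeat relatives and partners of Islr2 measured, 3 were lower and 2 higher (median 0.14). Ret, the receptor tyrosine kinase for GDNF family ligands with which Islr2 interacts, lay at 5.01 to 7.47 in the mutants and 8.86 to 9.83 in wild type. It fell by 2.79 ± 0.27 (SE; adjusted p = 2.71e-06), and its other probe set differed by -1.76. Lrrn3 fell by 2.95 (adjusted p = 2.74e-08) and Islr by 1.22 (0.00623). Taken singly, the mutants gave a call for Islr in Lrp5 KO only (-1.74), with -0.95 in Fz4 KO and -0.99 in Norrin KO. Lrrn1 rose by 3.12 (adjusted p = 3.38e-06) at its brightest probe set, while its other probe sets lay below the arrays' lower quartiles in both, at 2.95 and 2.73 in the mutants and 2.98 and 2.60 in wild type. Lrig1 was called higher at 0.35 (0.0236), a call lost under 6 of 25 alternative settings, among them the omission of wild type 2, 4 or 6 (adjusted p up to 0.463). Of the single mutants only Norrin KO had Lrig1 called (0.56).

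A list of 14 MARVEL-family relatives of Pllp was measured in full, and 3 were lower and 3 higher, with a median of -0.03. The list is not the whole family, and Ocln, counted in the barrier list instead, fell by 3.77. Mal, a membrane raft protein that shares myelin and epithelia with Pllp, had 10.64, 10.77 and 10.60 on the Fz4 KO arrays, 11.43, 11.72 and 11.49 on the Lrp5 KO arrays and 10.61, 10.55 and 10.35 on the Norrin KO arrays, against 12.17 to 12.82 in wild type. The mutants lay below wild type without overlap, with Lrp5 KO nearest to it; Mal fell by 1.74 ± 0.11 (SE; adjusted p = 2.34e-08), and was lower in Norrin KO than in Lrp5 KO by 1.04 (adjusted p = 0.00318). Cmtm8 fell by 0.84 (3.16e-04) and Myadml2 by 0.31 (0.0405), the second of which was lost under 16 of 24 settings (adjusted p up to 0.847). Of the single mutants only Norrin KO had Myadml2 called (-0.42), while Cmtm8 was not called in Norrin KO (-0.49, limma, adjusted p = 0.0615). Cmtm3 rose by 1.64 (5.47e-06), Plp2 by 1.03 (4.33e-06) and Myadm by 0.60 (4.27e-04).

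Genes next to the members on their chromosomes, the nearest 3 measured on each side by the order in RefSeq, were examined after the members' values were seen. Of the 24 neighbours 9 were called lower and 1 higher, against 9.91% and 14.0% of all genes, with a median of -0.12. None of the 6 beside Pglyrp1 was called.

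Stra6, the cell-surface receptor that takes up retinol from its binding protein, is 1 of the measured neighbours of Islr2, with Islr between them. Its signal was 7.40, 6.73 and 7.20 on the Fz4 KO arrays, 6.25, 7.20 and 6.68 on the Lrp5 KO arrays and 7.77, 6.23 and 6.57 on the Norrin KO arrays, against 10.85 to 11.35 in wild type. It fell by 4.13 ± 0.22 (SE; adjusted p = 4.11e-09), with differences of -3.92, -4.32 and -4.17 in the 3 mutants and no overlap. Stra6 is also known from pigment epithelium, so 6 markers of those cells were added: none was called, Rpe65 lay at 3.91 to 5.44 in the mutants and 4.19 to 4.99 in wild type, and their summed signal was 8.21 to 10.62 in the mutants and 9.12 to 11.08 in wild type. On the other side of Islr2, Pml rose by 0.65 (adjusted p = 0.00229; 0.21 and no longer called with the mean of its probe sets) and Stoml1 fell by 0.51 (0.0247; adjusted p up to 0.0753 under 3 of 24 settings, 1 of which left out wild type 1).

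**Figure D5:**
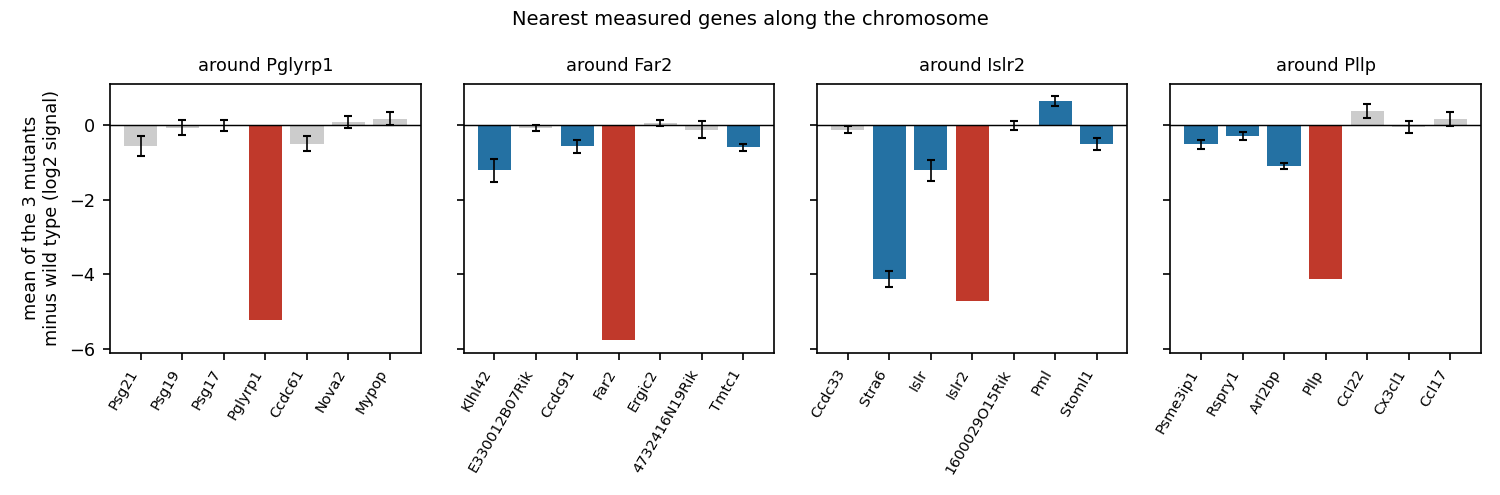
Difference from wild type in log2 signal of the 3 nearest measured genes on each side of every member, in chromosomal order and not to scale, with SE; blue bars were called, grey bars were not, and the member itself is red. Stra6 at -4.13 and Arl2bp at -1.10 lie near Islr2 and next to Pllp.

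Arl2bp, which binds the small GTPase Arl2, lies next to Pllp. It lay at 10.48 to 10.94 in the mutants and 11.70 to 11.91 in wild type without overlap, and fell by 1.10 ± 0.07 (SE; adjusted p = 3.89e-08); its other probe set differed by -1.34. Psme3ip1 fell by 0.51 (adjusted p = 0.00598) and Rspry1 was called lower at -0.30 (0.0438), a call lost under 16 of 25 settings (adjusted p up to 0.26). The chemokine genes on the other side of Pllp were not called: Ccl22 differed by 0.37, Cx3cl1 by -0.06 and Ccl17 by 0.16. Beside Far2, Klhl42 fell by 1.22 (0.008), Tmtc1 by 0.60 (2.29e-04) and Ccdc91 by 0.57 (0.0295; lost under 8 of 25 settings, adjusted p up to 0.182), while Ergic2 differed by 0.05.

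Markers of cells known to express a member gene elsewhere were measured beside them. Of 11 neutrophil genes Mpo fell by 1.68 (adjusted p = 0.00131) and the rest were not called. The summed neutrophil signal was 9.26 to 12.50 in the mutants and 10.21 to 11.59 in wild type, which overlap; S100a8 differed by 0.15 and S100a9 by -0.28. Of 11 myelin genes 1 was called, Cnp, which rose by 0.47 (0.00614). Taken singly, the mutants gave a call for Cnp in Norrin KO only (0.82), with 0.39 in Fz4 KO and 0.20 in Lrp5 KO. The summed myelin signal was 9.62 to 10.61 in the mutants and 9.50 to 9.91 in wild type. Mag, Mog, Ermn, Olig1 and Olig2 lay at 4.01 or lower on every array. Of 11 neuronal genes Isl1 fell by 0.84 (0.038, lost under 12 of 24 settings, adjusted p up to 0.398), and Sncg rose by 0.81 (0.00657). The mutants were not alike in these genes. Isl1 differed from wild type by -2.40 in Norrin KO, -0.56 in Fz4 KO and 0.42 in Lrp5 KO. Sncg was called in Fz4 KO only (1.23), with 0.78 in Lrp5 KO and 0.41 in Norrin KO. Thy1 rose by 4.27 (4e-11), between 8.38 and 10.84 in the mutants and 4.59 and 5.65 in wild type. The summed neuronal signal was 12.23 to 13.02 in the mutants and 11.83 to 12.53 in wild type. Over all mutants, summed rod signals were 9.81 to 11.97 (9.92 to 10.67 in wild type). Müller glia sums were 14.54 to 15.14 (14.72 to 15.02) and pericyte sums 14.86 to 15.35 (14.88 to 15.05). These ranges also overlapped, but some single mutants lay apart. Pericyte sums lay above wild type in Fz4 KO (15.18 to 15.31) and Lrp5 KO (15.13 to 15.35). Rod sums did in Lrp5 KO (10.90 to 11.97) and neuronal sums in Norrin KO (12.72 to 13.02). In Norrin KO, 2 of the 11 neuronal genes were called higher, Thy1 (5.33) and Rbpms (0.90), and 1 lower, Isl1 (-2.40). The median difference of the neuronal list there was 0.17. Myelin sums lay above wild type in Fz4 KO (9.94 to 9.97) and Norrin KO (10.18 to 10.61). These sums mostly reflect Cnp, with means of 9.58 in Fz4 KO, 10.01 in Norrin KO and 9.19 in wild type. The highest group mean of any other myelin gene was 6.30, for Mbp in Norrin KO. Cnp itself was not called in Fz4 KO (limma, adjusted p = 0.0937). Müller glia sums lay below wild type in Norrin KO (14.54 to 14.58). Vim and Glul had the highest means of that list, so the sums mostly reflect them. Of the 8 Müller glia genes, Norrin KO had 2 called lower, Rlbp1 (-1.80) and Glul (-0.50), and 1 higher, Gfap (1.62). In Lrp5 KO, Gfap was called lower (-1.11) and Aqp4 higher (1.53). Other sums of single mutants for these cell types overlapped wild type. Among rod, Müller glia and pericyte markers, Gnat1, Abcc9, Anpep and Cspg4 were called higher and Rlbp1 and Glul lower. The Rlbp1 call was lost under 10 of 25 settings (adjusted p up to 0.0957). Rlbp1 differed from wild type by -1.80 in Norrin KO, -0.96 in Fz4 KO and 0.35 in Lrp5 KO. In Lrp5 KO, Cspg4 (0.15) and Glul (-0.07) were not called. The part of any of these cells in the members' falls was not tested.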

How the data were processed

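RNA of 15 pools of purified retinal endothelial cells was hybridised to 1-colour arrays. The deposited values are log2 signals per probe set made by the authors with RMA, per the submitters' processing notes; other settings were not given in the sources used here. Of 45101 probe sets 34958 had 1 gene symbol, 932 several and 9211 none, by GEO's platform annotation. Each of 18194 genes was represented by its probe set with the highest mean. Group means were fitted over all 15 arrays with limma 3.58.1 in R 4.3.3 (lmFit, eBayes, Benjamini-Hochberg over all genes, adjusted p threshold 0.05), which was also tested on simulated data. Each mean difference over the mutants weights the 3 mutants equally. The text names the members, barrier-list genes past the threshold, relatives past it or of the same family, marker genes with their values and, for likeness, the 3 genes with the highest correlation. The members and lists were chosen with earlier results of these data known, and neighbours, promoter motifs and pigment epithelium markers after values were seen. Each array is a pool of mice, so a p-value reflects only how pools vary, and the number of arrays limits precision. Alternatives covered scaling, probe sets, covariates and left-out arrays. Listed genes with no matched probe set were not analysed here.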

Additional observations from a re-analysis of the deposited data

Results flagged for a closer look

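Some single arrays stood far from the others of their group by Dixon's criterion, which chance meets in about 1 in 20 groups. Pglyrp1 was lowest among wild-type arrays in wild type 5, at 12.51, and Mal likewise in wild type 5, at 12.17. Wild type 4, 1 of the 3 arrays that stood apart, was lowest for Islr, at 6.94, and for Cmtm3, at 8.0.

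Some genes differed between mutants by the limma test of the difference (n = 3 each, adjusted over all genes). Pglyrp1 in Fz4 KO against Norrin KO differed by -1.26 (adjusted p = 0.0375). In Norrin KO against Lrp5 KO, Degs2 differed by -1.41 (0.0276), Mal by -1.04 (0.00318), Elovl4 by -1.03 (0.0428), Itih5 by -0.74 (0.034), Ptn by -0.52 (0.0369) and Arl2bp by -0.37 (0.0461). Thy1 differed by 2.03 (3.97e-04) in that pair and by -1.17 (0.0166) in Fz4 KO against Norrin KO; it lay highest in Norrin KO. The background is 11.9% of genes called between Norrin KO and Lrp5 KO. The differences of Mal and of Thy1 between Norrin KO and Lrp5 KO were called under all 25 alternatives. Those of the others were lost under 19 (Arl2bp, adjusted p up to 0.219), 16 (Elovl4, 0.298), 11 (Ptn, 0.889), 9 (Itih5, 0.127) and 5 (Degs2, 0.367) alternatives, and that of Thy1 between Fz4 KO and Norrin KO under 7 (0.24). Leaving out a single array of either group was among these settings for each.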

How the results depend on the processing

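The falls of Pglyrp1, Islr2 and Pllp over the mutants moved little under any alternative (-5.10 to -5.30, -4.65 to -4.86 and -4.02 to -4.21), and that of Far2 was -4.78 with the mean of its probe sets. The count of called differences between mutants (1 of 12) was 0 with the actin gap as a covariate and with only the groups compared, 0 to 2 with 1 array left out, and 3 without the 3 arrays that stood apart. The barrier list in Fz4 KO had 0 to 1 higher with 1 array left out. In Norrin KO it had 1 higher with a trended, robust eBayes, with the mean of all probe sets and with only genes above the median gene, and 0 to 1 with 1 array left out. Markers of other cell types called lower (4) numbered 2 with only genes above the median gene and 2 to 4 with 1 array left out (2 without Lrp5 KO 2 or 3, Norrin KO 2 or 3, or wild type 2 or 4); those called higher (7) numbered 7 to 13, the highest without Norrin KO 3. Pan-endothelial genes called lower (5) numbered 3 without the 3 arrays that stood apart and 3 to 5 with 1 array left out (3 without Lrp5 KO 3, Norrin KO 2, or wild type 1, 2 or 4); those called higher (4) numbered 3 to 6. Signs turned for Pglyrp1 in Norrin KO against Lrp5 KO (-0.01 with the actin gap, -0.12 without Lrp5 KO 1, -0.02 without Norrin KO 1, -0.36 without the 3 arrays; -0.12 to 0.41 with 1 array left out), for Ptn in Norrin KO against Lrp5 KO (0.05 with the mean of its probe sets), for Far2 in Fz4 KO against Norrin KO (-0.32 to 0.08 with 1 array left out, the highest without Fz4 KO 3) and for Elovl1 (-0.14 without probe sets ending in _x_at or _s_at); the cause was not tested. Whether replicate numbers pair the samples was not settled. Deviations of same-numbered arrays correlated at -0.238 to 0.381, and those of differently numbered arrays at -0.602 to 0.661. With the replicate block the difference between mutants was called for 0 of 12, Pglyrp1 in Fz4 KO against Norrin KO had an adjusted p of 0.109, the barrier list in Fz4 KO had 0 higher, 4 of the 24 neighbours were lower, markers of other cell types had 1 lower and 4 higher, and pan-endothelial genes 1 lower and 2 higher.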

Other observations

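The genes whose signals followed a member most closely over the 15 arrays are given as a description; the arrays share the difference between mutants and wild type, and 1.39% to 1.53% of genes exceeded a Pearson r of 0.9 with each member. Pglyrp1 was followed by Prom1 (0.994), St6galnac2 (0.989) and Atp10a (0.989). Far2 was followed by Slc35f2 (0.992), St3gal6 (0.990) and Slc39a10 (0.990), Islr2 by Ndufa7 (0.991), Car4 (0.989) and Slco1c1 (0.989), and Pllp by Slc38a5 (0.992), Elovl7 (0.990) and Reck (0.990). Correlations among the members themselves were 0.971 to 0.987.

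Once group means were taken out, the members had less in common: r was 0.707 for Pglyrp1 and Pllp, 0.412 for Pglyrp1 and Islr2, and -0.272 to 0.193 for the other pairs, over 15 arrays. The closest genes were then Pebp1 (0.923) for Pglyrp1, Trim5 (0.840) for Far2, Ppp1r1a (0.879) for Islr2 and Alg14 (0.895) for Pllp, none of which was the closest in signal.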
